A study of Mus musculus with 6 samples.

Results

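Complement and plasma protein genes were followed in whole testes of mice with the jsd mutation and of mice that carry jsd together with a conditional knockout in Sertoli cells, called SCARKO-jsd. The set was named by gene symbol and holds 32 genes, of which 30 had a value among the 18194 genes named on the arrays. The 2 others, C3 and Cfd, are on no probe set with a single symbol in the annotation used and are not analysed here. Each gene was read on its brightest probe set, taken as the highest mean over all 6 arrays. Brightness therefore chose the probe set, and the genes were proposed when differences between the groups, that of Ahsg among them, were already known.

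The jsd mice (juvenile spermatogonial depletion) are mutated in Utp14b, and in the adult their seminiferous tubules are left with spermatogonia and Sertoli cells, with later germ cells scarce. SCARKO-jsd mice carry the same jsd mutation and, in addition, the Sertoli cell knockout. Sertoli cells line the tubule and nurse the germ cells. Mice of both groups were 12 weeks old, with 3 arrays in each group, and the SCARKO-jsd samples are also spelled SCARO-jsd and SCARCO-jsd in the labels. The promoter that drives the recombinase, the strain and which mouse gave which RNA are not given in the sources used here, so a p-value here weighs a difference only against the scatter of these 6 samples, which may be technical.

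Complement is a cascade of plasma proteases and binding proteins that marks cells and microbes for removal and can form pores in membranes. The classical and lectin routes start from recognition proteins with the proteases C1r, C1s and the MASPs, the alternative route amplifies on surfaces through factors B, D and properdin, and soluble and membrane-bound regulators hold the cascade in check. The liver makes most complement and plasma proteins, but Sertoli cells secrete their own supply of some of them, clusterin, ceruloplasmin and transferrin being textbook examples, into a space that the blood-testis barrier closes off from plasma.

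Values are log2 expression, so that 1 unit is a doubling. Differences are given as SCARKO-jsd minus jsd throughout. Expression values ran from 2.58 to 14.84 over all probe sets. A gene is called dim where its mean over the 6 arrays lies in the lowest 40% of all genes, up to a log2 expression of 6.64. The defining markers of testis somatic cells were present: 11 of 11 Sertoli, 5 of 5 Leydig and 7 of 7 peritubular myoid markers with a value lay above that limit. Of 14 markers of spermatocytes and spermatids, 9 were dim. SCARKO-jsd 2 stood apart from the rest. Its correlation with the others across genes was 0.952 to 0.973, against 0.973 to 0.994 among the others. Its median over all probe sets was 6.26, against 6.40 to 6.41 in the others. The gap between the 3' and 5' probe sets of beta-actin was 1.66 log2 units in that array and 0.70 to 0.98 in the other 5, and for Gapdh 0.64 against -0.28 to -0.10. Many of the differences whose sign or size turned on this array are given with and without it, but not all.

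Of the 30 genes, 13 lay above the dim limit and were tested, and 17 were dim. Among the 13, Cfi and Ahsg rose in SCARKO-jsd testes and 11 did not pass the test (limma, Benjamini-Hochberg adjusted p under 0.05 over the 10916 genes tested). For comparison, 3.57% of all genes tested were called. As shares of all genes tested, 1.78% were called higher and 1.8% lower. In counts this was 194 higher and 196 lower, and with median centring of the arrays 250 higher and 483 lower. Since the list was drawn up with differences in view, nothing is read from its share of called genes. The median difference of the 13 was 0.06, against 0.04 for all genes tested. Over all 30 it was 0.006, and without the limit on dim genes the same number, 2, passed, where 2.26% of all genes did. The limit itself fell close to several members: Ahsg (mean 6.87) and Ttr (6.99) lay just inside it and Apoa2 (6.57) and Cfb (6.45) just outside. Ahsg passed it only through the SCARKO-jsd arrays, so a difference in that gene was built into its being tested.

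**Figure D1:**
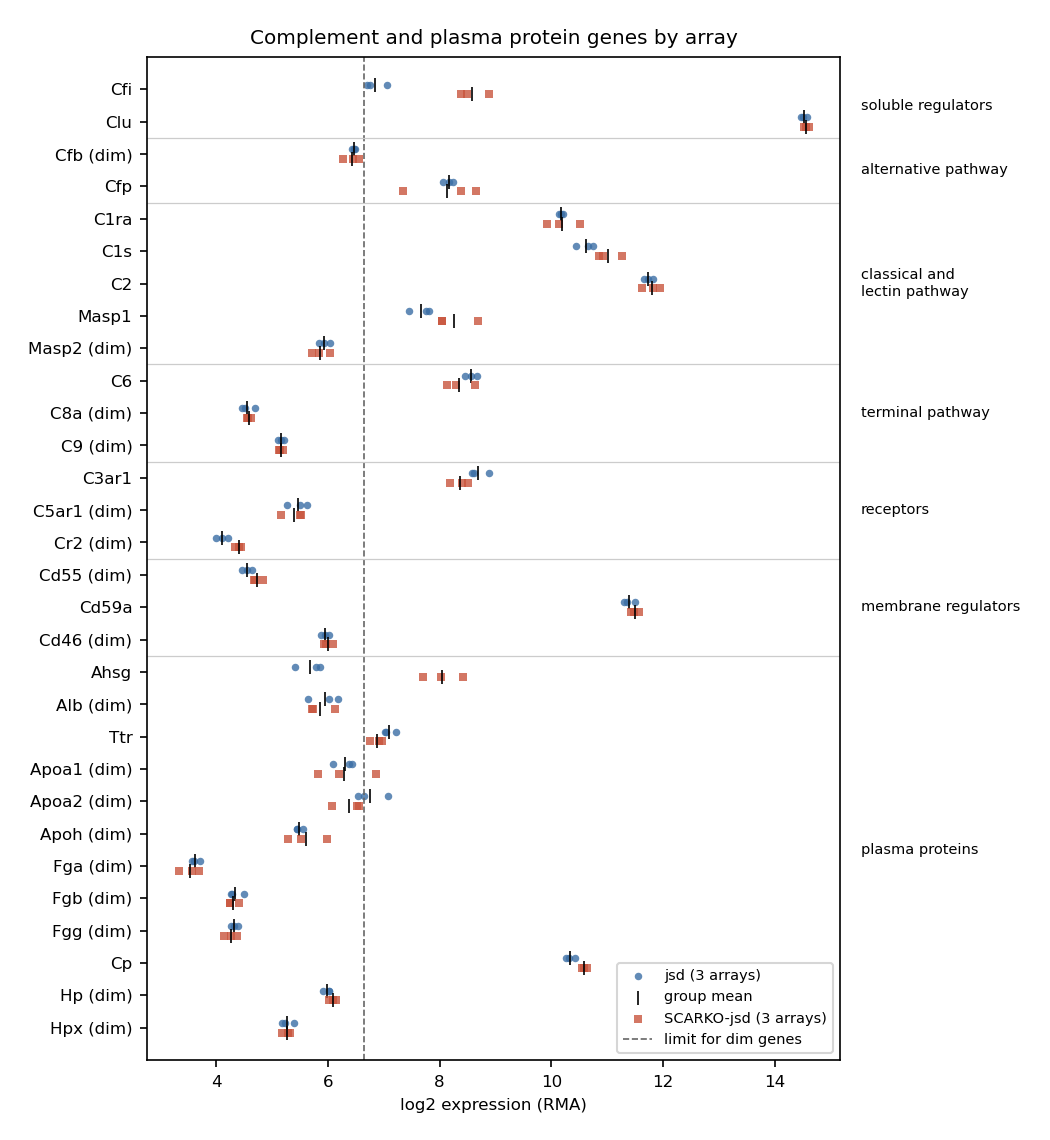
Log2 expression of the 30 genes on each array, grouped by role, with 3 jsd arrays as circles, 3 SCARKO-jsd arrays as squares, group means as black ticks and the dim limit (6.64) as a dashed line. Cfi and Ahsg are the rows where the groups lie far apart, while most other rows overlap or nearly touch.

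The complement regulator Cfi was the member of the cascade that rose. Cfi encodes factor I, the serine protease that cuts C3b and C4b into inactive pieces and so stops the cascade. In jsd 1, 2 and 3 its log2 expression was 6.71, 7.05 and 6.75, and in SCARKO-jsd 1, 2 and 3 it was 8.38, 8.88 and 8.49. All 3 SCARKO-jsd arrays lay above all 3 jsd arrays. Both group means were above the dim limit, but that of jsd, at 6.84, was close to it, which makes the size of the fold less certain. The difference was 1.74 ± 0.15 (SE), a 3.35-fold rise (limma, Benjamini-Hochberg adjusted p = 0.00192, higher in 3 of 3 arrays). The adjusted p ranged from 0.000371 to 0.0194 over 11 alternatives, so the call did not hang on a single array. Cfi has 1 probe set, hence no other probe set bears on it. In a RefSeq gene table (GRCm38.p6) the neighbours of Cfi on chromosome 3 are Gar1, which fell by 0.52 (limma, Benjamini-Hochberg adjusted p = 0.0289, called in 7 of 12 alternatives, up to 0.147), and Pla2g12a at -0.20, which did not pass. These neighbours were chosen after their values were seen.

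Clu, the other soluble regulator, showed no comparable difference. Clu encodes clusterin, which binds the forming membrane attack complex and is a major secreted product of Sertoli cells. Its log2 expression was 14.57, 14.51 and 14.46 in the jsd arrays and 14.51, 14.60 and 14.56 in the SCARKO-jsd arrays, with full overlap. The difference was 0.04 with a 95% interval of -0.15 to 0.24, and it turned to -0.04 with median centring. All 4 probe sets of Clu lay within 0.004 to 0.05.

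In the alternative pathway, neither gene with a value passed. Cfp encodes properdin, which stabilises the C3 convertase and is made by myeloid cells. Its log2 expression was 8.25, 8.06 and 8.17 in the jsd arrays and 8.39, 7.35 and 8.66 in the SCARKO-jsd arrays. SCARKO-jsd 2 was the lowest array and SCARKO-jsd 1 and 3 were the highest. The difference of -0.03 ± 0.30 (SE) turned to 0.36 without SCARKO-jsd 2 (limma, Benjamini-Hochberg adjusted p = 0.0972, higher in 2 of 2 arrays). The other probe set of Cfp gave 0.20 with overlapping groups, and its lowest array was jsd 1, at 6.82. The summed level of 10 macrophage markers on the linear scale was lowest in SCARKO-jsd 2, at 12117 against 13398 to 14487 in the jsd arrays. That sum leans on its brightest genes, Csf1r and Lyz2. Cd68, Csf1r, Cd163, Lyz2, Fcer1g, Tyrobp and Cx3cr1 were lowest in that array, Adgre1 was highest there, and Mrc1 and Cd14 were neither. These markers are named after their values were seen. The part of macrophages in the Cfp values was not tested. Cfb, which encodes factor B, the protease of the alternative C3 convertase, was dim, with 6.44 to 6.48 in jsd and 6.28 to 6.55 in SCARKO-jsd arrays.

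Of the 5 genes of classical and lectin proteases with a value, 4 lay above the dim limit and were tested, and none of the 4 passed. Masp1 encodes a protease of the lectin route. Its log2 expression was 7.76, 7.81 and 7.46 in the jsd arrays and 8.04, 8.68 and 8.05 in the SCARKO-jsd arrays. The groups did not overlap, and SCARKO-jsd 2 was the highest array. The difference was 0.58 ± 0.19 (SE), with a 95% interval of 0.14 to 1.02. It did not pass (limma, Benjamini-Hochberg adjusted p = 0.160, with 0.0687 to 0.361 over 11 alternatives). All 5 probe sets of Masp1 were higher in SCARKO-jsd testes, by 0.32 to 0.75, and 4 of them did not overlap between the groups, although 3 of the 5 were dim and probe sets of a gene share the same RNA. Without SCARKO-jsd 2 the difference of the brightest probe set was 0.37.

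C1s, the protease that C1r activates within the C1 complex, was matched to C1s1 through its gene ID. Its log2 expression was 10.66, 10.74 and 10.44 in the jsd arrays and 10.85, 11.27 and 10.92 in the SCARKO-jsd arrays. Here too the groups did not overlap and SCARKO-jsd 2 was the highest. The difference was 0.40 ± 0.14 (SE), and the gene did not pass (limma, Benjamini-Hochberg adjusted p = 0.181, with 0.114 to 0.402 over 12 alternatives). Without SCARKO-jsd 2 the difference was 0.27. Near-identical gene copies can share signal on such probe sets, so which copy is measured is uncertain.

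C1ra, the partner protease of C1s, was at 10.13 to 10.21 in jsd and 9.92 to 10.52 in SCARKO-jsd arrays. Its difference of 0.02 had a 95% interval of -0.32 to 0.37 and turned to -0.14 without SCARKO-jsd 2 and -0.06 with median centring. A probe set shared with the copy C1rb gave 0.24. C2, which supplies the protease of the classical C3 convertase, was at 11.66 to 11.82 in jsd and 11.62 to 11.95 in SCARKO-jsd arrays. Its 3 probe sets gave 0.06, 0.12 and 0.16, all with overlapping groups, and the brightest turned to -0.02 both with median centring and without SCARKO-jsd 2. Masp2, the lectin protease that cuts C4 and C2, was dim on both its probe sets, with a difference of -0.07 on each.

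The terminal genes, which build the membrane attack complex, gave no called difference. C6 was tested, and its log2 expression was 8.56, 8.66 and 8.45 in the jsd arrays and 8.13, 8.64 and 8.29 in the SCARKO-jsd arrays. The groups overlapped through SCARKO-jsd 2. The difference was -0.20 ± 0.14 (SE, limma, Benjamini-Hochberg adjusted p = 0.503), and -0.34 without SCARKO-jsd 2 (adjusted p = 0.0873). C8a and C9 were dim, with differences of 0.02 and -0.01.

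Of the receptors, the anaphylatoxin receptor gene C3ar1, found on macrophages and other myeloid cells, was tested. Its log2 expression was 8.88, 8.58 and 8.61 in the jsd arrays and 8.40, 8.18 and 8.51 in the SCARKO-jsd arrays. The groups did not overlap, with SCARKO-jsd lower, but the gap between the closest arrays was small. The difference was -0.33 ± 0.13 (SE), and it did not pass (limma, Benjamini-Hochberg adjusted p = 0.222, with 0.161 to 0.553 over 12 alternatives). Without SCARKO-jsd 2 the difference of C3ar1 was -0.24. Its other probe sets gave -0.18 and -0.14, both with overlapping groups. The summed level of the macrophage markers ran from 13398 to 14487 in jsd and from 12117 to 14233 in SCARKO-jsd arrays, and 0 of the 10 were called. In RNA of whole testes, fewer cells of a type and less RNA per cell cannot be told apart. C5ar1, the receptor for C5a, and Cr2, the receptor of B cells and follicular dendritic cells for C3d, were dim. C5ar1 differed by -0.07. Cr2 was at 4.01 to 4.22 in jsd and 4.34 to 4.46 in SCARKO-jsd arrays, a difference of 0.29 at the bottom of the range, and all 5 B cell markers with a value were dim too.

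Membrane regulators protect a cell from its own complement. Cd59a, which blocks the pore of the membrane attack complex, was at 11.31, 11.35 and 11.50 in the jsd arrays and 11.57, 11.43 and 11.48 in the SCARKO-jsd arrays. The groups overlapped, the difference was 0.11 with a 95% interval of -0.10 to 0.33, and its other probe set gave -0.12. Cd55, which speeds the decay of the convertases, and Cd46, a cofactor for factor I that in the mouse is best known from the acrosome of sperm, were dim. Cd55 differed by 0.18 and Cd46 by 0.05.

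**Figure D2:**
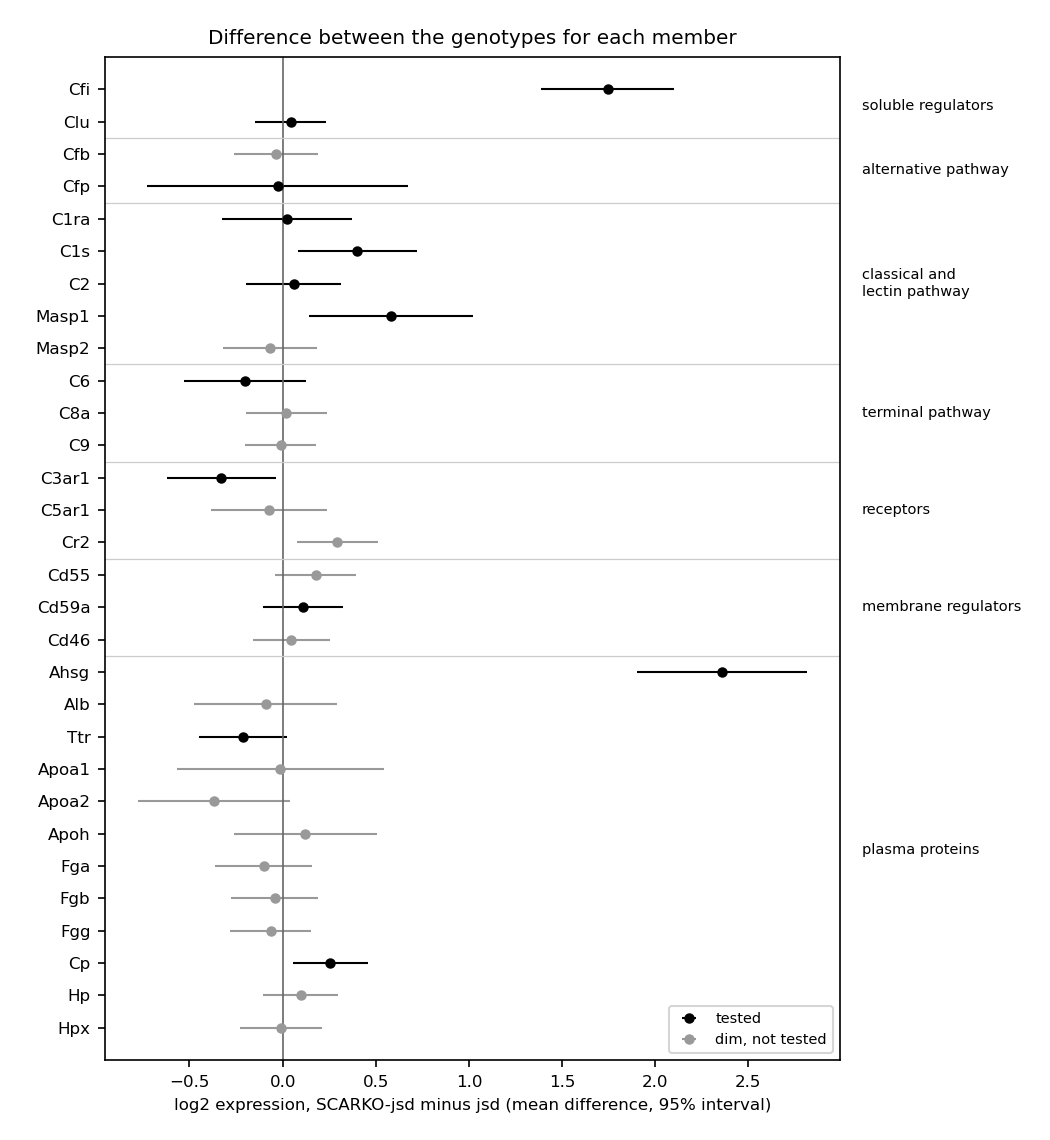
Difference in log2 expression, SCARKO-jsd minus jsd, with its 95% interval from limma for each of the 30 genes, tested genes in black and dim genes in grey. The intervals of Cfi (1.38 to 2.10) and Ahsg (1.90 to 2.81) lie far from 0, and those of the tested Masp1, C1s, C3ar1 and Cp leave 0 without passing the adjustment over all genes. Among the dim genes, that of Cr2 (0.077 to 0.51) leaves 0 as well.

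Of the 12 plasma protein genes, 3 were tested and 9 were dim, and among the 3 Ahsg rose. Ahsg encodes fetuin A, a plasma glycoprotein that keeps calcium phosphate in solution. In jsd 1, 2 and 3 its log2 expression was 5.79, 5.42 and 5.86, and in SCARKO-jsd 1, 2 and 3 it was 7.70, 8.42 and 8.02. All jsd arrays lay below the dim limit and all SCARKO-jsd arrays above it. The difference was 2.36 ± 0.20 (SE), 5.12-fold (limma, Benjamini-Hochberg adjusted p = 0.00156, higher in 3 of 3 arrays), and the adjusted p lay between 0.000334 and 0.0135 over 11 alternatives. Without SCARKO-jsd 2, the highest array, the difference was 2.17. Because the jsd level is dim, the size of the fold is uncertain, and there is no other probe set of Ahsg.

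Ahsg lies on chromosome 16 beside its near relative Fetub, which encodes fetuin B. Fetub was at 7.39, 7.64 and 6.29 in the jsd arrays and 6.85, 7.91 and 6.74 in the SCARKO-jsd arrays. The groups overlapped throughout, and jsd 1, jsd 2 and SCARKO-jsd 2 were the high arrays. The difference was 0.06 ± 0.41 (SE), with a 95% interval of -0.90 to 1.02, and it turned to -0.35 without jsd 3, -0.31 without SCARKO-jsd 2 and -0.02 with median centring. On the other side of Ahsg, Dnajb11 differed by 0.10 and, beyond Fetub, the dim Hrg by -0.12. Beyond Dnajb11, Tbccd1 differed by 0.05 and the dim Crygs by -0.69 ± 0.22 (SE). All of these neighbours were chosen after their values were seen.

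Alb, which encodes serum albumin, was dim with overlapping groups, at 5.64, 6.18 and 6.02 in the jsd arrays and 5.72, 6.12 and 5.73 in the SCARKO-jsd arrays. Its difference was -0.09, or -0.22 without SCARKO-jsd 2. Its neighbour on chromosome 5, Afp, encodes alpha-fetoprotein, the albumin of the fetus. Afp was at 6.54, 6.44 and 6.75 in the jsd arrays and 7.40, 7.67 and 7.58 in the SCARKO-jsd arrays. It rose by 0.97 ± 0.12 (SE, limma, Benjamini-Hochberg adjusted p = 0.00701, higher in 3 of 3 arrays), with a jsd mean (6.58) under the dim limit. Afp thus passed that limit only through the SCARKO-jsd arrays, so a difference was built into its being tested. The adjusted p was 0.0525 without jsd 1. Of its further probe sets, 1 lay just above the dim limit and gave 0.54, and 3 were dim and gave 0.78, 0.49 and -0.05.

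Promoters of these neighbouring pairs are shown because Ahsg and Afp passed the test, though both were tested only through the SCARKO-jsd arrays. Fetub did not pass and has a wide interval, Alb was dim and not tested, and the difference between the genes of a pair was not tested. They run from 250 bases before to 50 after the start that RefSeq gives, all on the plus strand of GRCm38.p6, and capitals mark matches to the motifs searched. Ahsg is at chr16:22891765-22892064, Fetub at chr16:22918132-22918431 (the first of 2 listed starts), Alb at chr5:90460620-90460919 and Afp at chr5:90490464-90490763.
Ahsg: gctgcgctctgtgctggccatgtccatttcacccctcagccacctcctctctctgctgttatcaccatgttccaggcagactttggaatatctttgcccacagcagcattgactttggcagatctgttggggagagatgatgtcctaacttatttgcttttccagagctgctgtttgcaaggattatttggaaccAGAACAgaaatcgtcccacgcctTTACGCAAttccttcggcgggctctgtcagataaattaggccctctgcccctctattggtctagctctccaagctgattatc
Fetub: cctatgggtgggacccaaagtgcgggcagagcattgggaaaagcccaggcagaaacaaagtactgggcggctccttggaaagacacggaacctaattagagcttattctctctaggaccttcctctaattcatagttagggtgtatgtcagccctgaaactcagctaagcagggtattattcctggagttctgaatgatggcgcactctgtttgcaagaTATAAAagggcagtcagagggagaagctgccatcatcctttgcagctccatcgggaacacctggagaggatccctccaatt
Alb: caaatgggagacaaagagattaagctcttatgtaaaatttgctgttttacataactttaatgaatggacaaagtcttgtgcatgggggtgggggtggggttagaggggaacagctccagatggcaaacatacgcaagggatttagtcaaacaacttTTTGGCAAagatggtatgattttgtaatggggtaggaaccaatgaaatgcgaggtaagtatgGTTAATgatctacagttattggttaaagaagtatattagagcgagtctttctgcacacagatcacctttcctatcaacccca
Afp: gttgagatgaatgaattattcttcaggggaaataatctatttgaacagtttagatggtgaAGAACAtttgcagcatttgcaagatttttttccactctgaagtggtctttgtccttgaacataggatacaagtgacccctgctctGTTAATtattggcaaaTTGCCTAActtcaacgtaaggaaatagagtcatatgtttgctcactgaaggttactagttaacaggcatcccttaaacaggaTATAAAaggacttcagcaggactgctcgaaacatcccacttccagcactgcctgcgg
On both strands, 5 short motifs were searched: the TATA box TATAAA, the HNF1 motif GTTAAT, the C/EBP core TTGCNNAA, the STAT core TTCNNNGAA and the hexamer TGTTCT of steroid receptors. HNF1 and C/EBP proteins are transcription factors of liver genes, and STAT proteins carry cytokine signals of the acute phase. The Ahsg promoter held 1 hexamer, from -55 to -50 relative to the start, and 1 C/EBP core, from -32 to -25. Afp held 1 match each to the hexamer, the HNF1 motif, the C/EBP core and the TATA box. Alb held 1 HNF1 motif and 1 C/EBP core, and Fetub 1 TATA box. Of all 32851 promoters of this length, 19% held the hexamer, 10.8% the C/EBP core, 7.1% the HNF1 motif, 13.6% the TATA box and 8.3% the STAT core. No 2 matches overlapped, and a match describes letters in this window, not a bound site.

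Ttr, which encodes transthyretin, the carrier of thyroid hormone and retinol-binding protein, was at 7.04, 7.22 and 7.02 in the jsd arrays and 6.75, 6.98 and 6.92 in the SCARKO-jsd arrays. The groups did not overlap, with SCARKO-jsd lower by a small step. The difference was -0.21 ± 0.10 (SE), which did not pass (limma, Benjamini-Hochberg adjusted p = 0.328), and the other 3 probe sets, all dim, gave -0.37, -0.20 and 0.02.

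Cp encodes ceruloplasmin, the copper-carrying ferroxidase of plasma, which Sertoli cells secrete. On its brightest probe set the log2 expression was 10.31, 10.43 and 10.26 in the jsd arrays and 10.55, 10.64 and 10.58 in the SCARKO-jsd arrays, with no overlap. The difference was 0.26 ± 0.09 (SE) and did not pass (limma, Benjamini-Hochberg adjusted p = 0.174, with 0.137 to 0.877 over 12 alternatives). The 8 probe sets of Cp did not move together: 4 were higher, by up to 0.34, and 4 lower, by up to 0.78. The 2 that were lower by most had a single low array. One of them was at 8.65, 9.28 and 9.18 in the jsd arrays and 9.16, 6.76 and 8.84 in the SCARKO-jsd arrays. The other was at 6.69, 7.04 and 7.20 in the jsd arrays against 7.34, 5.25 and 6.74 in SCARKO-jsd. Without SCARKO-jsd 2 these gave -0.03 and 0.06. The mean of all 8 probe sets was thereby turned to -0.05. The larger gap between 3' and 5' probe sets of beta-actin in SCARKO-jsd 2 is given above, and its part in these values was not tested. Over the 61 probe sets of the 30 genes, SCARKO-jsd 2 was the highest array in 31 and the lowest in 6, by over 1 log2 unit in the 2 of Cp.

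**Figure D3:**
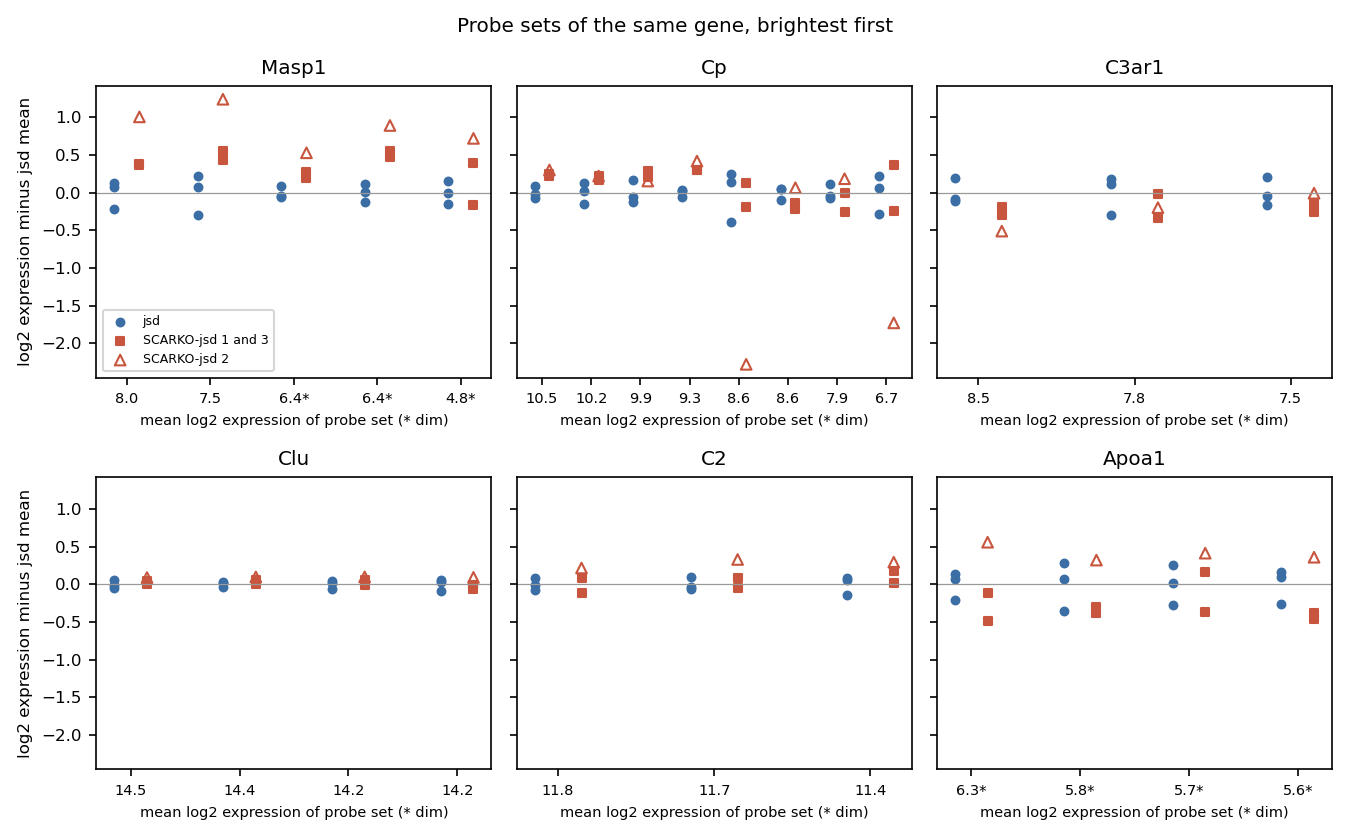
Log2 expression minus the jsd mean for every probe set of Masp1, Cp, C3ar1, Clu, C2 and Apoa1, ordered by mean brightness (numbers under each set, with dim sets starred), with SCARKO-jsd 2 as open triangles. All 5 sets of Masp1 are raised in SCARKO-jsd, whereas 2 sets of Cp fall far below only in SCARKO-jsd 2.

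The remaining 8 plasma proteins were dim, and for each the groups overlapped. The apolipoprotein genes Apoa1 and Apoa2 encode the main proteins of high-density lipoprotein. Apoa1 was at 6.37, 6.44 and 6.10 in the jsd arrays and 5.82, 6.86 and 6.19 in the SCARKO-jsd arrays, a difference of -0.01 that was -0.30 without SCARKO-jsd 2, and on all 4 of its probe sets SCARKO-jsd 2 was the highest SCARKO-jsd array. Apoa2 was at 6.66, 6.54 and 7.07 in the jsd arrays against 6.56, 6.53 and 6.08 in SCARKO-jsd, a difference of -0.37. Apoh, which binds phospholipids, differed by 0.12, and by -0.070 without SCARKO-jsd 2. The fibrinogen chain genes Fga, Fgb and Fgg, whose proteins form the clot, differed by -0.10, -0.04 and -0.06. Hp, whose product haptoglobin binds free haemoglobin, differed by 0.10, and Hpx, whose product hemopexin binds heme, by -0.01, or 0.032 without SCARKO-jsd 2.

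In all, 7 of the 13 tested genes had groups that did not overlap, 5 of them higher (Ahsg, Cfi, Masp1, C1s and Cp) and 2 lower (C3ar1 and Ttr), where 24.6% of all genes tested had such groups. Of the 17 dim genes, Cr2 and Cd55 did not overlap, against 14.4% of all dim genes. No more than the counts is read from these shares, since the list was chosen with the values known.

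Further genes of the same cascade, from a list of 31 that were not members, gave no called difference. Of these, 23 had a value and 12 were tested. By limma 0 of the 12 passed, where 3.57% of all genes tested were called. Only 1 of the 12, C8g, had an unadjusted limma p under 0.05, as had 1960 of all 10916 genes tested. C8g, a chain of the membrane attack complex protein C8, was higher by 0.33 ± 0.12 (SE, limma, Benjamini-Hochberg adjusted p = 0.189, higher in 3 of 3 arrays). Without SCARKO-jsd 2 the difference of C8g was 0.235. C1qbp differed by -0.23 and Serping1, the inhibitor of C1r, C1s and the MASPs, by 0.17. Vtn, which encodes vitronectin, a regulator of the membrane attack complex, differed by 0.18, or 0.0155 without SCARKO-jsd 2. None of C1qbp, Serping1 and Vtn passed (limma, adjusted p = 0.340, 0.461 and 0.639). The macrophage-made recognition genes C1qa, C1qb and C1qc, chosen after their values were seen, differed by -0.11, -0.07 and -0.01, and by 0.15, 0.12 and 0.12 without SCARKO-jsd 2. As for the brightest probe set of Cfp, their lowest array was SCARKO-jsd 2, with C1qa at 10.63 against 11.17 to 11.53 in the other arrays.

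Further plasma protein genes, from a list of 50, included 4 that rose. Of these, 46 had a value and 15 were tested, and 11 did not pass, where 3.57% of all genes tested were called and 1.78% were higher. This list too was drawn up with differences known, that of H2-Q10 among them, so nothing is read from its share. H2-Q10, a secreted class I protein that the liver releases into plasma, was at 5.71, 5.34 and 5.13 in the jsd arrays and 8.42, 8.63 and 7.76 in the SCARKO-jsd arrays, with a jsd mean (5.39) under the dim limit. Like Ahsg and Afp, H2-Q10 was tested only through the SCARKO-jsd arrays, so a difference was built into its being tested. Lrg1, a leucine-rich glycoprotein of the acute phase, was at 10.63, 10.31 and 10.04 in the jsd arrays against 11.35, 11.48 and 11.78 in SCARKO-jsd, higher by 1.21 ± 0.17 (SE). Orm1, which encodes orosomucoid, an acute-phase carrier protein, was at 7.16, 7.02 and 6.68 in the jsd arrays against 7.91, 7.51 and 7.85 in SCARKO-jsd, higher by 0.80 ± 0.16. By limma the Benjamini-Hochberg adjusted p values of H2-Q10, Lrg1 and Orm1 were 0.00156, 0.0129 and 0.0369, each higher in 3 of 3 arrays. Lrg1 did not pass without jsd 2 (0.0640). Orm1 did not pass without jsd 1, jsd 2, jsd 3, SCARKO-jsd 1 or SCARKO-jsd 3 (0.0786 to 0.142) or with median centring (0.0659).

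**Figure D4:**
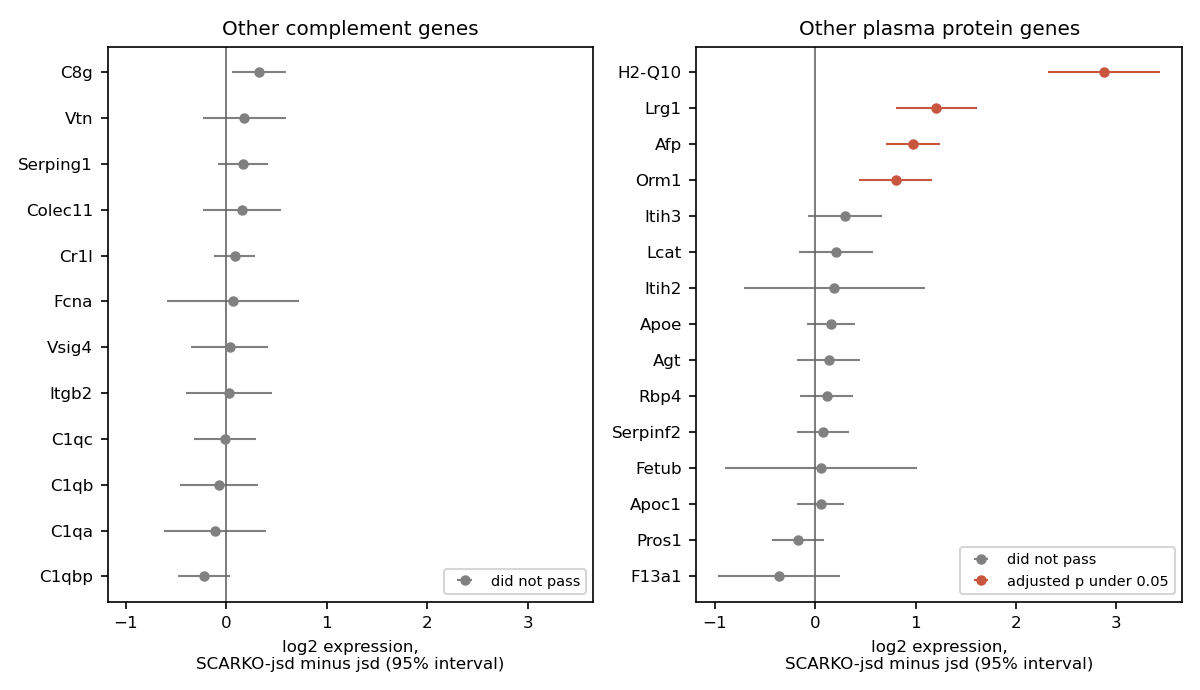
Difference in log2 expression, SCARKO-jsd minus jsd, with its 95% interval, for the 12 tested genes of the further complement list and the 15 tested genes of the further plasma protein list. All 4 called genes, in red, are plasma protein genes that were higher, while the 12 complement genes lie between -0.23 and 0.33.

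Markers of cells that could bring such transcripts into the sample were read alongside. Of 10 hepatocyte markers with a value, 9 were dim and 0 were called, and their summed level on the linear scale was 365 to 395 in jsd and 353 to 386 in SCARKO-jsd arrays, which overlap. All 7 epididymis markers with a value were dim. The 7 adipocyte markers summed to 1559 to 2594 in jsd and 1984 to 2670 in SCARKO-jsd arrays, with 0 called. That sum leans on its brightest gene, Cidea, which differed by 0.54, and the list was mixed. Lpl and the dim Cidec differed by 0.22 and 0.01, Fabp4 and Retn by -0.37 and -0.15, and the dim Adipoq and Lep by -0.80 and -0.15. These adipocyte genes are named after their values were seen. Of 8 neutrophil markers 7 were dim, S100a8 and S100a9 among them. The list summed to 262 to 321 in jsd and 387 to 437 in SCARKO-jsd arrays, and its tested member Camp rose, by 1.28 ± 0.23 (SE, limma, Benjamini-Hochberg adjusted p = 0.0293, called in 7 of 11 alternatives, up to 0.136). Camp was tested only through the SCARKO-jsd arrays, its jsd mean of 6.32 being under the dim limit. Without Camp the other 7 summed to 196 to 214 in jsd and 193 to 237 in SCARKO-jsd arrays, which overlap. Among Sertoli cell markers, which summed to 48730 to 51910 in jsd and 48071 to 51643 in SCARKO-jsd arrays, Wt1 fell and 10 did not pass. Wt1 was called in 6 of 12 alternatives, with an adjusted p of up to 0.187 by limma. The spermatogonial list summed to 6048 to 7168 in jsd and 7797 to 9349 in SCARKO-jsd arrays, with Dazl, Uchl1 and Stra8 higher. Its other genes with a value did not pass. Of these, Ddx4, Sohlh1, Sall4 and Gfra1 differed by 1.06, 0.89, 0.66 and 0.59. Kit, the brightest of the list, and Zbtb16 differed by -0.03 and -0.06. These uncalled genes are named after their values were seen. Dazl was called in 8 of 12 alternatives, Uchl1 in 9 of 12 and Stra8 in 7 of 11, with adjusted p values of up to 0.163, 0.0980 and 0.154 by limma. These calls, like those of Camp, Wt1 and Gar1, were lost when jsd 1, jsd 2 or SCARKO-jsd 3 was left out. Those of Wt1, Dazl and Stra8 were also lost when jsd 3 was left out, and those of Camp, Wt1 and Gar1 when SCARKO-jsd 1 was. That of spermatocytes and spermatids summed to 1123 to 1270 and 1361 to 1803, with Sycp3 higher in all 11 alternatives. The part of these germ cell lists in the rise of Cfi and Ahsg was not tested. Neither the endothelial, red blood cell, Leydig nor peritubular myoid list held a called gene.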

How the data were processed

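The authors deposited log2 expression per probe set, made from Affymetrix arrays. The submitters' processing notes name RMA and affy without versions. RMA subtracts background, brings arrays to a shared distribution and summarises probes, so a shift of most transcripts cannot be seen in such values. Of 45101 probe sets, 34958 carried 1 gene symbol in the platform annotation, whose symbols can be out of date, 932 several and 9211 none. Probe sets with several symbols named no gene. One member, C1s, was matched through its gene ID. The target of the conditional knockout is not reported here.

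Genes were tested with limma 3.58.1 in R 4.3.3 (lmFit and eBayes, no trend, two-sided, genotype as the only term) on each gene's brightest probe set, leaving out the lowest 40% by mean, which left 10916. Dim members have differences and intervals from the fit without that filter and no p. The members and all lists were chosen with earlier results of these data known. Named are all members, Fetub, the called genes of the further lists and otherwise the 4 with the smallest p. Alternatives were no filter, a filter on the lowest 60%, the mean of probe sets, median centring, trend with robust, a replicate block, a threshold of 0.1 and leaving out single arrays. Between arrays sharing a replicate number the correlations of deviations were -0.21, 0.23 and 0.24, within the range of the other pairs (-0.388 to 0.345). Such arrays were not taken as pairs. The fit was tested on simulated data. The number of arrays limits the precision. No arrays held identical values. Promoters are from RefSeq (GRCm38.p6), whose table holds 23 of the 30 members. Figures were drawn with matplotlib 3.10.9.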

Additional observations from a re-analysis of the deposited data

How the results depend on the processing

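Cfi and Ahsg were higher and called under all 11 alternatives that tested them, and with any 1 array left out the number of called members was 2 each time. With the lowest 60% of genes left out, neither was tested and 0 of 8 members were called, and of the further complement and plasma genes 1 of 13 was. That latter count, 4 at first, ranged from 2 to 4 with an array left out, the 2 arising without jsd 1 and without jsd 2. The count over all genes, 390, was 733 with median centring and 728 at an adjusted p threshold of 0.1, and ran from 78 without jsd 1 to 768 without SCARKO-jsd 2, with 119 and 239 when jsd 2 or jsd 3 was left out and 141 when SCARKO-jsd 3 was. With the replicate number as a replicate block it was 397, with 2 members called, and the block changed no call of the tested members or the named further complement and plasma genes. Among the other named genes it ended the calls of Wt1 (limma adjusted p = 0.0657) and Gar1 (0.0589). The median difference of the members ran from 0.05 to 0.15 with an array left out and was -0.02 with median centring, which also moved that of all genes below 0.

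Several differences, none of them called, changed sign, and all but that of Cp (0.26) were near 0. With median centring they were -0.023 for C2, -0.060 for C1ra, -0.039 for Clu and -0.024 for Fetub. With the mean of probe sets they were 0.086 for Cfp, -0.0057 for Cd59a and -0.051 for Cp. With an array left out, Cfp ran from -0.29 without SCARKO-jsd 3 to 0.36 without SCARKO-jsd 2 (0.016 without jsd 1), and C2 from -0.017 without SCARKO-jsd 2 to 0.15. C1ra ran from -0.14 without SCARKO-jsd 2 to 0.16, and Fetub from -0.35 without jsd 3 to 0.33 (-0.31 without SCARKO-jsd 2). For Cfp, Cd59a and Cp the mean of probe sets averages sets of opposite sign. Median centring subtracts a constant from each array, so it moved every difference by the same amount. The median over all genes tested went from 0.043 to -0.041. The cause of the changes with an array left out was not tested. Among the dim genes, Apoh (-0.070), Hpx (0.032) and Cd46 (-0.0005) changed sign without SCARKO-jsd 2. The values of C1qa, C1qb and C1qc without that array, the neutrophil sum without Camp and the alternatives for the called markers and Gar1 were chosen after seeing the data. Signal near background limits the 17 dim genes.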

Other observations

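Itih2 and F5 are named here after their values were seen. Fetub and Itih2 shared their 3 highest arrays, which do not follow genotype. Itih2, a heavy chain of the inter-alpha-trypsin inhibitor, was at 10.50, 10.80 and 9.54 in the jsd arrays and 10.00, 11.18 and 10.24 in the SCARKO-jsd arrays. In both genes jsd 1, jsd 2 and SCARKO-jsd 2 were the high arrays, and the SD within each group was 0.62 to 0.72 log2 units. F5, the gene of coagulation factor V, was dim at 6.16, 5.98 and 5.73 in jsd and 5.06, 5.56 and 5.20 in SCARKO-jsd arrays, a difference of -0.69 with no overlap between the groups.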
